A study of Homo sapiens with 6 samples.

Results

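The genes described here, 10 of the 16000 listed for every library, are NF-kB targets of inflammation: the CXC chemokines CXCL1, CXCL2, CXCL3, CXCL5 and CXCL8, the chemokine CCL20, the cytokine IL6, the inhibitors NFKBIA and TNFAIP3, and the adhesion molecule ICAM1. They were taken from the count table by their symbols, and all 10 passed the expression filter of the tests. RNA was sequenced from 6 human lung adenocarcinoma cell lines grown in RPMI medium with serum, with 1 library per line. The study asked which signalling pathways accompany acquired resistance to EGFR tyrosine kinase inhibitors, drugs that block the epidermal growth factor receptor. The resistant lines PC-9GR and PC-9ER are paired with PC-9, and the resistant lines HCC827GR and HCC827ER with HCC827, by their names and the study's design of parental and resistant pairs. In 1 label the line HCC827GR is typed HCC82GR. What GR and ER stand for is not given in the labels, nor is a drug, dose or time of selection, or a drug in the medium at harvest. Each line stands for 1 culture.

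NF-kB dimers, built from RELA, RELB, REL, NFKB1 and NFKB2, are held in the cytoplasm by IkB proteins until a signal such as interleukin-1 or tumour necrosis factor leads to destruction of the IkB. The freed dimers bind kappaB motifs in promoters. CXCL1, CXCL2, CXCL3, CXCL5 and CXCL8 bind the receptor CXCR2 and attract neutrophils, CCL20 attracts cells with CCR6, and IL6 signals through IL6R and gp130 (IL6ST). NFKBIA encodes IkB-alpha and TNFAIP3 encodes the ubiquitin-editing enzyme A20; NF-kB induces both, and both switch it off. ICAM1 is the surface ligand of leukocyte beta-2 integrins. Lung adenocarcinoma cells are known to secrete several of these chemokines.

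The promoters of these genes carry the motif that the group is named for. The 250 bases before the start of each gene, from the RefSeq promoter table (GRCh38.p14, all 10 genes matched), were searched on both strands for GGNNTTTCC, a form of the kappaB motif. It was found in 10 of 10 genes, against 5.48% of 35116 promoters in the table. The 10 genes were listed as known NF-kB targets, so this difference is not a result of these data. The AP-1 motif TGANTCA, which reads the same on both strands, was in 1 of 10 (CXCL8), against 6.57% of promoters. The C/EBP motif TTGCNNAA was in 2 of 10 (CXCL2 and IL6), against 9.05%. The windows of 150 bases below are written 5′ to 3′ on the strand of the gene, with matches to the kappaB motif or its reverse complement in capitals. They end at the base before the start, except that of ICAM1, which ends 81 bases before it. They are shown for the 5 clustered chemokines, which make up most of the secreted signal, and for 3 genes whose levels followed other patterns. The regions, in the same order, are chr4:73869243-73869392 (+), chr4:74099196-74099345 (-), chr4:74038690-74038839 (-), chr4:73998678-73998827 (-), chr4:73740419-73740568 (+), chr7:22727050-22727199 (+), chr6:137867109-137867258 (+) and chr19:10270890-10271039 (+).
CXCL1: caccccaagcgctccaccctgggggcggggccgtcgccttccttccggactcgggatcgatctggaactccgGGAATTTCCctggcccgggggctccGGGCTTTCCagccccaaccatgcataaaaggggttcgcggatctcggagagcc
CXCL2: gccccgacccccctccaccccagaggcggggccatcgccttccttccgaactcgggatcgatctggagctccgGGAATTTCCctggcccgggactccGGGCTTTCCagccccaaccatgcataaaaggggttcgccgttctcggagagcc
CXCL3: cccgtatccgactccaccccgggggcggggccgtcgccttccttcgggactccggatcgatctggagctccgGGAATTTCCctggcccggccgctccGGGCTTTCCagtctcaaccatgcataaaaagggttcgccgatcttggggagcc
CXCL5: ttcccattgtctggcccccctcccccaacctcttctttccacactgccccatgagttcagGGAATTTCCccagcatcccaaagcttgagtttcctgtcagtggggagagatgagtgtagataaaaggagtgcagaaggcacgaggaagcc
CXCL8: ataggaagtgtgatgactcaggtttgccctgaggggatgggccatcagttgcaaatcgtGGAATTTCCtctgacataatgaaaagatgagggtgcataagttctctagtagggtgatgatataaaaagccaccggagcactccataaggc
IL6: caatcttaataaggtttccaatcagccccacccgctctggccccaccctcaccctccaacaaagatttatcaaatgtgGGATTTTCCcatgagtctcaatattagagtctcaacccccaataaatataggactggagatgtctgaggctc
TNFAIP3: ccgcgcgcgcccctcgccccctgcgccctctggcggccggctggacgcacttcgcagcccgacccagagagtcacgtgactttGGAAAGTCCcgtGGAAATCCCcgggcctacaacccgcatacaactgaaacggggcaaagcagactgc
ICAM1: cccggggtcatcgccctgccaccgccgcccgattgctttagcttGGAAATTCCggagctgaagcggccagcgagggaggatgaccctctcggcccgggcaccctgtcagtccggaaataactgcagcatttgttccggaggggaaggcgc
CXCL1, CXCL2 and CXCL3 each hold a pair of motifs, and their windows were 86.1% to 88.7% identical to each other in a global alignment. CXCL5 and CXCL8 hold a single match in their windows, and their windows were 43.6% to 54.9% identical to those 3 and to each other. The same 9 letters, GGAATTTCC, stand in the windows of all 5 CXC chemokines. In TNFAIP3 and ICAM1 the matches are on the opposite strand. A match describes these letters and does not show that a factor binds there.

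The library labelled PC-9GR stood apart from its parent. Its Spearman correlation with PC-9 across 13492 genes was 0.774, against 0.830 with HCC827GR and 0.823 between the parents HCC827 and PC-9. The other derived lines correlated with their parents at 0.958 (PC-9ER), 0.940 (HCC827GR) and 0.882 (HCC827ER). Levels are given in CPM, a gene's share of all counts of its library times 1000000. At 5 CPM or more, 324 genes were present in PC-9GR with at most 3 counts in PC-9, against 4 such genes in PC-9ER. The origin of this library was not tested, so its ratios to PC-9 are ratios to the parent only by its label. The main counts are therefore also given without PC-9GR. Total counts ran from 14529331 to 17832869. Ribosomal protein genes took 16.1% of the counts in HCC827ER, against 8.50% in HCC827, and 5.85% to 7.65% in the other 4 libraries. The median log2 ratio over tested genes was -0.33 for HCC827ER against HCC827, and within 0.05 of 0 for the other pairs. TMM scaling, which equalises the bulk of genes, brought that median to 0 and raised the HCC827ER ratios, with CXCL1 at 3.84 (log2) against 3.49 by total counts. Both ER libraries, and no others, come from a second table, so a difference between tables cannot be told apart from ER. The keratins KRT7, KRT8 and KRT18 were at 856 CPM or more in every library. Of the 10 lung adenocarcinoma markers 9 were tested, and all 9 were fitted lower in resistant lines, with a median log2 fold change of -1.64. EGFR, among the lowest, was fitted at -2.03 ± 0.48. In PC-9GR EPCAM was at 1.91 CPM, against 384 CPM in PC-9, KRT19 at 13.1 CPM, against 1939 CPM in PC-9, and CDH1 at 56.1 CPM, against 322 CPM in PC-9. KRT8 and KRT18 went the other way in PC-9GR, with 3635 CPM, against 2569 CPM in PC-9, and 2451 CPM, against 1784 CPM in PC-9. Of 8 markers that reached 1 CPM in this pair, 5 were at least 2-fold lower and 0 higher, beside 20.9% each way over all genes. The lung factor NKX2-1 was at most 15.2 CPM, with 0 in PC-9GR and HCC827ER.

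HCC827ER and PC-9GR held most of the chemokine RNA. Summed over the 5 CXC chemokines, expression was 358 CPM in PC-9GR and 23.7 CPM in PC-9ER, against 20.004 CPM in PC-9. It was 57.4 CPM in HCC827GR and 913 CPM in HCC827ER, against 116 CPM in HCC827. So 1 derived line of each parent was high, the GR line for PC-9 and the ER line for HCC827, while the other PC-9 line was near its parent and the other HCC827 line was below it. In single pairs, which have no replicate and hence no test, a gene is counted here when it differs at least 2-fold and reaches 1 CPM in 1 library. In HCC827ER 9 of the 10 genes were at least 2-fold higher than in HCC827 and 1, TNFAIP3, was lower, against a background of 11.3% higher and 28.3% lower among 12597 genes. With TMM 9 were higher and 0 lower, against 18% and 18.9% of 12646 genes, of which 2278 were higher, against 1421 by total counts. In HCC827GR 1 of 10 was higher (ICAM1) and 3 were lower (CXCL1, CXCL3 and CXCL8), against 8.16% and 8.8% of 12595 genes. In PC-9GR 5 of 10 were higher (CXCL1, CXCL2, CXCL3, CXCL5 and CCL20) and 2 were lower (TNFAIP3 and ICAM1), against 20.9% each way of 13020 genes. In PC-9ER 2 of 10 were higher (CXCL2 and IL6) and 1 was lower (ICAM1), against 5.49% and 7.61% of 12288 genes. These shares are over genes that reach 1 CPM in the pair, which 10 of the 10 did in PC-9GR and HCC827ER, 7 in PC-9ER and 9 in HCC827GR. The median log2 ratio of the 10 genes was 1.87 for PC-9GR and 0.32 for PC-9ER, and -0.82 for HCC827GR and 1.56 for HCC827ER. With counts below 3 raised to 3 these medians were 1.89, 0.32, -0.82 and 1.61. The 2 pairs of a family share their parental library. Counts of whole cultures cannot tell fewer expressing cells from less RNA per cell.

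**Figure D1:**
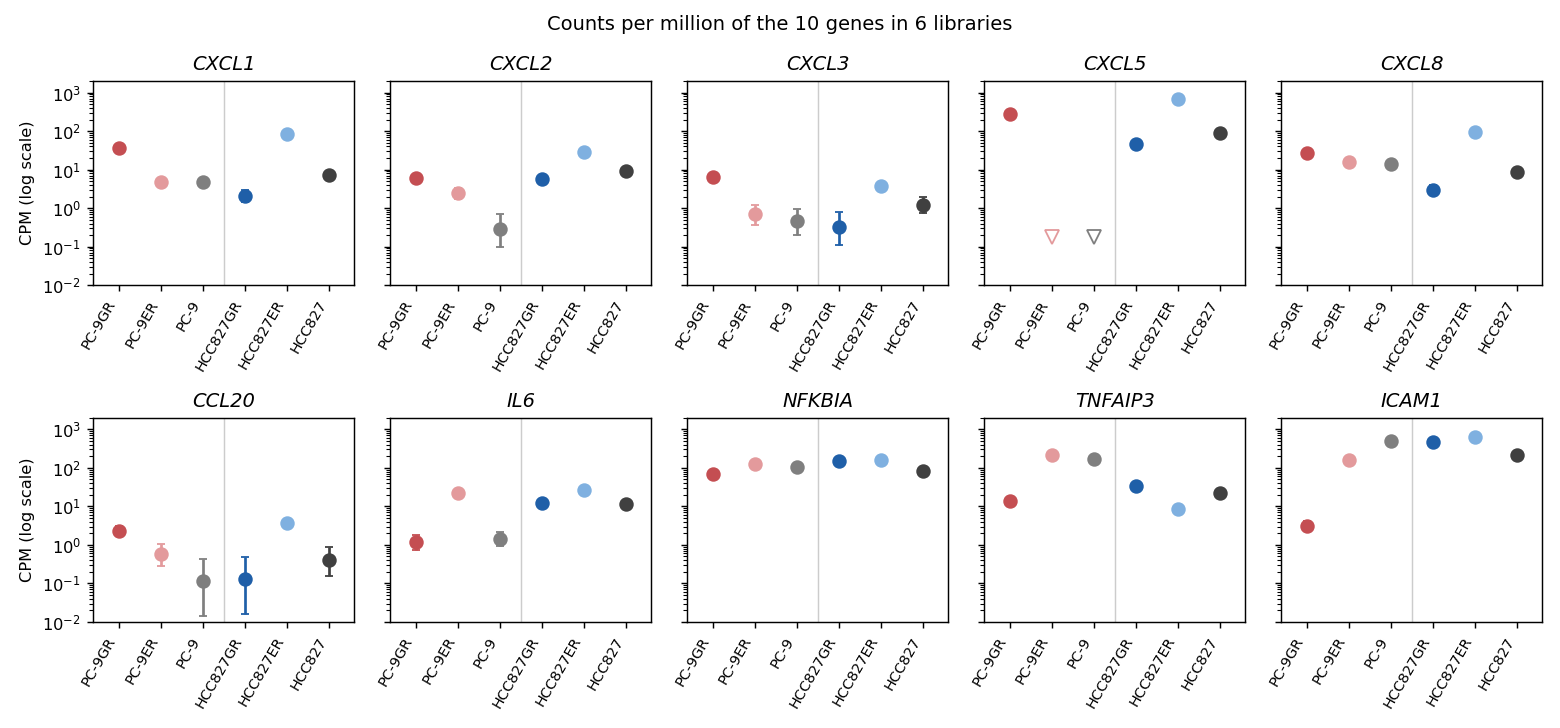
Expression of the 10 genes in the 6 libraries, in CPM on a log axis shared by the panels, with derived lines left of their parent and bars for the 95% Poisson counting interval. CXCL5 is at 0 counts in PC-9ER and PC-9, where the symbol is an open triangle at the limit of 3 counts, and HCC827ER is the highest library for CXCL1, CXCL2, CXCL5, CXCL8, CCL20, IL6, NFKBIA and ICAM1.

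CXCL5, the neutrophil chemokine also called ENA-78, encoded at chr4:73995642-73998779 (-), was the most abundant of the secreted genes in 4 libraries and was not detected in the other 2. It had 283 CPM (5043 counts) in PC-9GR and 0 counts in PC-9ER, against 0 counts in PC-9. The upper limit behind a count of 0 is 3 counts, which is 0.174 CPM in PC-9ER and 0.178 CPM in PC-9, so CXCL5 was at least 1592.77-fold higher in PC-9GR than in PC-9 when PC-9 is set to that limit. The exact interval of the ratio, which also counts the error in PC-9GR, has its lower end at 1295. In the HCC827 family it had 46.1 CPM in HCC827GR and 702 CPM in HCC827ER, against 89.3 CPM in HCC827. The level in HCC827ER was 7.87-fold that of HCC827, with a 95% interval of 7.43 to 8.34. The level in HCC827GR was 0.517 of that in HCC827, with an interval of 0.471 to 0.567. Gene positions are from GENCODE 29 (GRCh38). All ratio intervals are exact binomial intervals that cover counting error only, since 1 library per line gives no spread between cultures. CXCL5 made up a like share of the CXC counts wherever it was present: 79.0% (95% exact interval 78.0 to 80.0) in PC-9GR, 80.3% (77.5 to 83.0) in HCC827GR, 76.9% (76.3 to 77.6) in HCC827ER, and 76.8% (74.7 to 78.8) in HCC827. In PC-9ER it was 0 of 409 CXC counts, for which 3 counts would be a share of 0.733%, and in PC-9 it was 0 of 338, for which 3 counts would be 0.888%. The upper ends of the exact intervals were 0.898% in PC-9ER and 1.085% in PC-9. There CXCL8 led instead, with 66.7% of CXC counts in PC-9ER and 71.9% in PC-9.

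**Figure D2:**
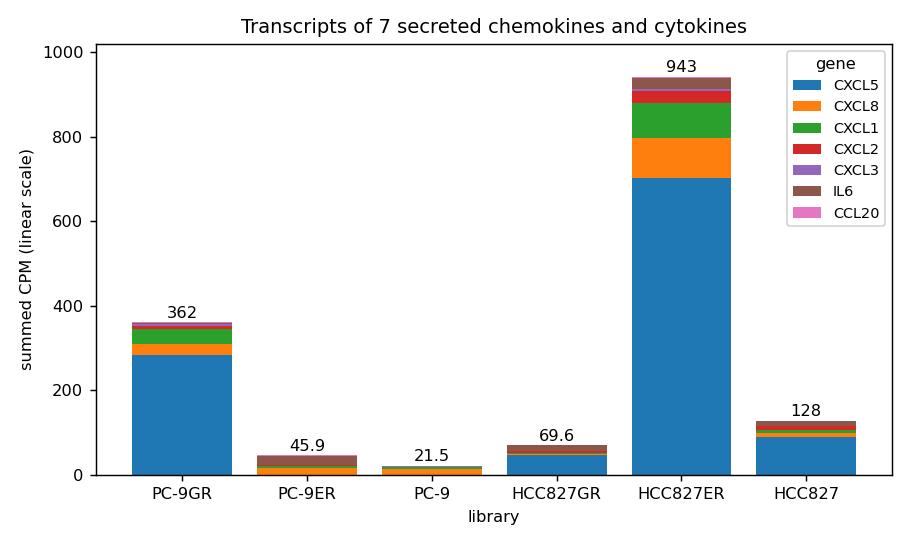
Summed expression of the secreted genes in each library, in CPM on a linear axis from 0, split by gene, with derived lines left of their parent. CXCL5 fills most of the bar in PC-9GR, HCC827GR, HCC827ER and HCC827 and is absent from PC-9ER and PC-9, and the HCC827ER bar reaches 943 CPM for the 7 secreted genes.

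CXCL1 (GRO-alpha, chr4:73869393-73871242 (+)) had 35.8 CPM in PC-9GR and 4.76 CPM in PC-9ER, against 4.85 CPM in PC-9. In the HCC827 family it had 2.07 CPM in HCC827GR and 82.5 CPM in HCC827ER, against 7.23 CPM in HCC827. The 2 derived lines of HCC827 thus lay on opposite sides of their parent, 11.4-fold above it (9.35 to 14.05) for HCC827ER and at 0.286 of it (0.185 to 0.431) for HCC827GR. PC-9GR was 7.37-fold above PC-9 (5.85 to 9.40), and PC-9ER was 0.980 of PC-9 with an interval of 0.713 to 1.35 that includes 1. CXCL8, interleukin-8, at chr4:73740506-73743716 (+), gave the same order within HCC827 on a higher base in PC-9. It had 26.8 CPM in PC-9GR and 15.8 CPM in PC-9ER, against 14.4 CPM in PC-9, and 3.005 CPM in HCC827GR and 95.7 CPM in HCC827ER, against 8.95 CPM in HCC827. HCC827ER was 10.7-fold above HCC827 (8.94 to 12.9) and HCC827GR was at 0.336 of it (0.234 to 0.475). In the PC-9 lines the spread of CXCL8 was smaller, with 1.86-fold (1.59 to 2.18) in PC-9GR and 1.10-fold (0.923 to 1.31) in PC-9ER.

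CXCL2 (GRO-beta, chr4:74097035-74099293 (-)) differed from CXCL1 in PC-9ER. It had 6.22 CPM (111 counts) in PC-9GR and 2.44 CPM (42 counts) in PC-9ER, against 0.296 CPM (5 counts) in PC-9. Both PC-9 lines were thus above their parent, 21.0-fold (8.75 to 66.1) and 8.23-fold (3.26 to 26.7), with wide intervals because PC-9 held 5 counts. In the HCC827 family CXCL2 had 5.88 CPM in HCC827GR and 28.9 CPM in HCC827ER, against 9.50 CPM in HCC827. CXCL3 (GRO-gamma, chr4:74036589-74038807 (-)) was the lowest of the 5 CXC genes per exon length in the 4 libraries that held CXCL5. It had 6.45 CPM (115 counts) in PC-9GR and 0.696 CPM (12 counts) in PC-9ER, against 0.473 CPM (8 counts) in PC-9. It had 0.334 CPM (5 counts) in HCC827GR and 3.82 CPM (66 counts) in HCC827ER, against 1.24 CPM (18 counts) in HCC827. CXCL3 was the only member of the 10 besides TNFAIP3 whose highest library was not HCC827ER; for CXCL3 that library was PC-9GR. CXCL1, CXCL2 and CXCL3 share 5.26% to 9.24% of their 50-base stretches with each other, so a small part of their reads could be exchanged in counting. CXCL5 and CXCL8 share none.

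CCL20 (chr2:227805739-227817564 (+)), the ligand of CCR6, followed the CXC genes at a lower level. It had 42 counts (2.36 CPM) in PC-9GR and 10 counts (0.580 CPM) in PC-9ER, against 2 counts (0.118 CPM) in PC-9. It had 2 counts (0.134 CPM) in HCC827GR and 64 counts (3.70 CPM) in HCC827ER, against 6 counts (0.413 CPM) in HCC827. The 2 high libraries were those with high CXC sums. The ratio in PC-9GR was 19.9 with an interval of 5.18 to 170, and in HCC827ER 8.96 with an interval of 3.90 to 25.3. The interval in HCC827GR, 0.0319 to 1.81, includes 1.

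IL6 (chr7:22725884-22732002 (+)) was high in the other PC-9 line. It had 1.18 CPM (21 counts) in PC-9GR and 21.6 CPM (373 counts) in PC-9ER, against 1.42 CPM (24 counts) in PC-9. PC-9ER was 15.2-fold above PC-9 (10.1 to 24.1), whereas PC-9GR was at 0.829 of it, with an interval of 0.439 to 1.55. In the HCC827 family IL6 had 12.02 CPM in HCC827GR and 26.3 CPM in HCC827ER, against 11.5 CPM in HCC827. HCC827ER was 2.29-fold above HCC827 (1.91 to 2.75), and HCC827GR was 1.05-fold with an interval of 0.842 to 1.30. So IL6 was highest in both ER libraries, which is also the split between the tables. ER and GR libraries set side by side show that IL6 alone of the 7 secreted genes was higher in the ER library of both families. It was 18.4-fold higher in PC-9ER than in PC-9GR and 2.19-fold higher in HCC827ER than in HCC827GR. CXCL1 was 7.52-fold lower in PC-9ER than in PC-9GR and 39.8-fold higher in HCC827ER than in HCC827GR.

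NFKBIA (IkB-alpha, chr14:35401511-35404749 (-)) varied least of the 10 genes, with a highest over lowest level of 2.38. It had 67.6 CPM in PC-9GR and 122 CPM in PC-9ER, against 103 CPM in PC-9. It had 149 CPM in HCC827GR and 161 CPM in HCC827ER, against 80.5 CPM in HCC827. The ratio in HCC827ER, 2.003, lay at the 2-fold line. TNFAIP3 (A20, chr6:137867188-137883312 (+)) parted from NFKBIA and from the chemokines. It had 13.6 CPM in PC-9GR and 222 CPM in PC-9ER, against 169 CPM in PC-9, which is 12.4-fold lower in PC-9GR. It had 34.3 CPM in HCC827GR and 8.79 CPM in HCC827ER, against 22.4 CPM in HCC827, which is 2.54-fold lower in HCC827ER. The 2 libraries with the highest CXC sums thus had the lowest TNFAIP3 levels of the 6. With TMM scaling the log2 ratio of TNFAIP3 in HCC827ER was -0.99, against -1.34 by total counts, and no longer reached 2-fold.

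ICAM1 (chr19:10270835-10286615 (+)) separated the families. It had 3.14 CPM (56 counts) in PC-9GR and 161.5 CPM (2785 counts) in PC-9ER, against 492 CPM (8317 counts) in PC-9. That is 157-fold lower in PC-9GR and 3.05-fold lower in PC-9ER. It had 457 CPM in HCC827GR and 628 CPM in HCC827ER, against 218 CPM in HCC827, or 2.10-fold and 2.88-fold higher. Its highest and lowest libraries were 200-fold apart. The endothelial markers CDH5 and PECAM1 were lower in the same PC-9 lines. The other markers listed, VWF, KDR, TEK and CLDN5, had at most 5 counts in any library. KDR, TEK and CLDN5 had 0 counts in PC-9, and CLDN5 had 3 counts in PC-9GR. CDH5 was at 0.112 CPM in PC-9GR and 32.8 CPM in PC-9ER, against 151 CPM in PC-9, and PECAM1 was at 0 in PC-9GR and 22.7 CPM in PC-9ER, against 68.7 CPM in PC-9. Summed over the 6 endothelial markers listed, expression was 0.231 to 55.7 CPM in derived lines and 0.964 to 220.0 CPM in parental lines, and 2 of the 6 were tested. Their part in the ICAM1 values was not tested.

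**Figure D3:**
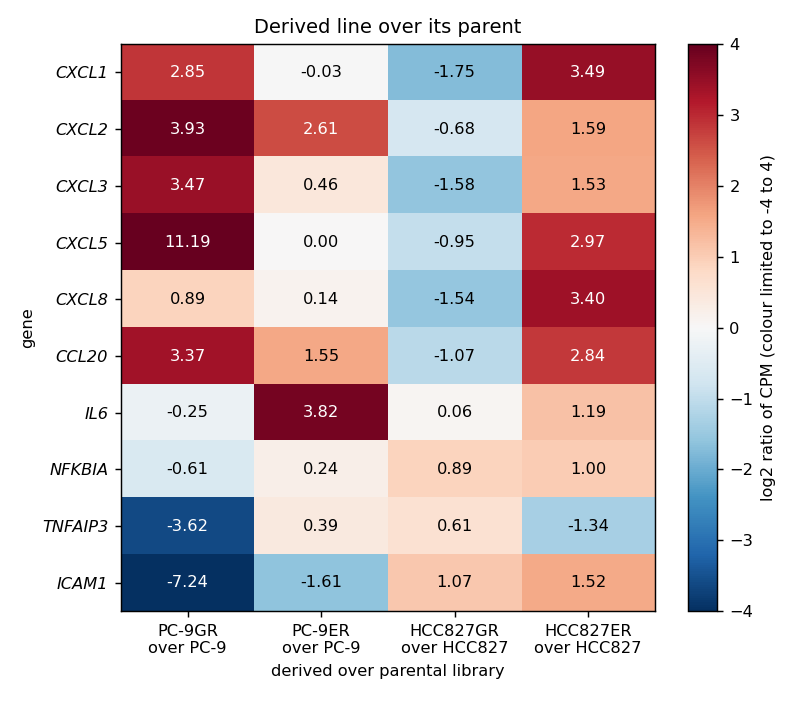
Log2 ratio of each derived line to its parent for the 10 genes (rows), by total counts with a prior count of 2, as numbers and as colour limited to 4 either way. The 5 CXC chemokines are above 0 in PC-9GR and HCC827ER and below 0 in HCC827GR, TNFAIP3 is below 0 in PC-9GR (-3.62) and HCC827ER (-1.34), and ICAM1 is below 0 in both PC-9 lines and above 0 in both HCC827 lines.

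Per exon length, the order of levels between genes can be given. In HCC827ER, levels in RPKM, counts scaled to library total and to exon length, were 277 for CXCL5, 169 for ICAM1, 67.9 for NFKBIA, 63.6 for CXCL1, 42.1 for CXCL8, 19.2 for CXCL2, and 12.7 for IL6. CCL20, TNFAIP3 and CXCL3 followed with 2.32, 1.74 and 1.72 RPKM. In PC-9GR the order was led by CXCL5 with 111 RPKM, NFKBIA with 28.5 and CXCL1 with 27.6 RPKM, while ICAM1 had 0.847 RPKM. In the PC-9 parent ICAM1 led with 133 RPKM, NFKBIA had 43.5 and TNFAIP3 had 33.4 RPKM, and no secreted gene exceeded the 6.32 RPKM of CXCL8. The parents themselves differed: CXCL2 was 32.1-fold and IL6 8.09-fold higher in HCC827 than in PC-9, and TNFAIP3 was 7.54-fold lower in HCC827.

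No gene of the 10 passed a test that spans the lines. With 4 resistant against 2 parental lines and the line of origin as a block, 0 of 10 genes were called by the quasi-likelihood test of edgeR at an adjusted p of 0.05, against a background of 0% of 13492 genes. Fitted log2 fold changes were 2.48 ± 1.63 (SE) for CXCL1, 2.22 ± 1.17 for CXCL2, 1.89 ± 1.56 for CXCL3, and 1.56 ± 1.44 for CXCL8. They were 2.99 ± 1.67 for CCL20, 1.85 ± 1.28 for IL6, 0.46 ± 0.47 for NFKBIA, -0.28 ± 1.01 for TNFAIP3 and -1.06 ± 1.74 for ICAM1, each with an edgeR adjusted p of 0.999. For CXCL5 it was 4.31 ± 3.66, and 2.36 without PC-9GR and 6.73 without HCC827GR. The fitted change was above 0 for 8 of 10 genes, and the median was 1.87, against 0.04 over all genes tested. CCL20, counted among the 8, did not pass the filter without PC-9GR or without HCC827ER, its 2 highest libraries. Its direction is thus not independent of the filter. Without PC-9GR the fitted change was above 0 for 9 of 9 genes tested, CCL20 not among them, with a median of 1.58, against 0.026 over 13303 genes. These directions depended on HCC827ER as well. When HCC827ER was left out instead, CXCL8 (-0.39), TNFAIP3 (-0.084) and ICAM1 (-1.29) were fitted below 0. CXCL1 was then at 0.30, and CXCL2, CXCL3, CXCL5, IL6 and NFKBIA were also above 0. Within the PC-9 family, within the HCC827 family and for the difference between them, 0 of 10 genes were called as well, against backgrounds of 0% each. At an unadjusted edgeR p below 0.05 the backgrounds were 342 (2.53%), 130 (0.964%), 196 (1.45%) and 118 (0.875%) genes of 13492 for the 4 comparisons, and 0 of the 10 genes were among them. DESeq2 called 34 (0.279%), 92 (0.739%), 42 (0.311%) and 25 (0.185%) genes. Of the 10 genes it called CXCL5 in the PC-9 family (adjusted p = 0.00332), where PC-9GR has 5043 counts and PC-9ER has 0. No gene of the 10 was higher, or lower, in all 4 pairs, against 9.78% and 12.3% of 13780 genes, and 0 differed at least 2-fold one way in all 4, against 0.305% (higher) and 0.791% (lower). Single libraries set some directions. Without HCC827ER the fit across families for CXCL8 was -0.39, and without PC-9GR those for TNFAIP3 and ICAM1 were 0.15 and 0.082. Without PC-9ER, which leaves PC-9GR alone with the spread taken from the HCC827 lines, edgeR called CXCL2 (4.401, adjusted p = 0.0281), TNFAIP3 (-3.59, adjusted p = 0.0208), ICAM1 (-7.25, adjusted p = 2.1e-05) and CXCL5 (adjusted p = 4.27e-10) in PC-9GR against PC-9, among 999 genes (7.58% of 13185) called in that fit. Without PC-9GR, an alternative added after the data had been seen, 2 of 10 (IL6 and NFKBIA) were higher in the other 3 pairs, against 14.8% of genes.

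The 5 CXC genes lie in a cluster on chromosome 4, band q13, over 359 kb from the start of CXCL8 at 73740506 to the end of CXCL2 at 74099293 (GENCODE 29, GRCh38). The ends of the cluster are flanked by RASSF6 and by MTHFD2L, followed by the EGFR ligand genes EPGN (epigen), EREG (epiregulin), AREG (amphiregulin) and BTC (betacellulin). EPGN had at most 3 counts in any library. CXCL6, between CXCL8 and CXCL1, had at most 5 counts in every library. EREG and AREG went with the chemokines in PC-9GR and HCC827GR and against them in HCC827ER. AREG had 28.4 CPM in PC-9GR and 9.45 CPM in PC-9ER, against 3.20 CPM in PC-9. It had 11.8 CPM in HCC827GR and 13.6 CPM in HCC827ER, against 152 CPM in HCC827. EREG had log2 ratios of 1.62 (PC-9GR), 1.25 (PC-9ER), -1.23 (HCC827GR) and -2.78 (HCC827ER). Thus in HCC827ER the chemokine cluster was above its parent while EREG, AREG and BTC beyond it were below. Farther out, AFP (alpha-fetoprotein) had 3.34 CPM in HCC827GR and 5.78 CPM in HCC827ER, against 0.138 CPM in HCC827, and at most 1 count in the PC-9 lines. PARM1 was lower in every derived line, with 0.785 CPM in PC-9GR and 21.9 CPM in PC-9ER, against 35.7 CPM in PC-9, and 0.067 CPM in HCC827GR and 1.16 CPM in HCC827ER, against 2.13 CPM in HCC827. RASSF6, next to CXCL8, had log2 ratios of 2.56, 0.69, 0.18 and -0.07 in the same order.

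**Figure D4:**
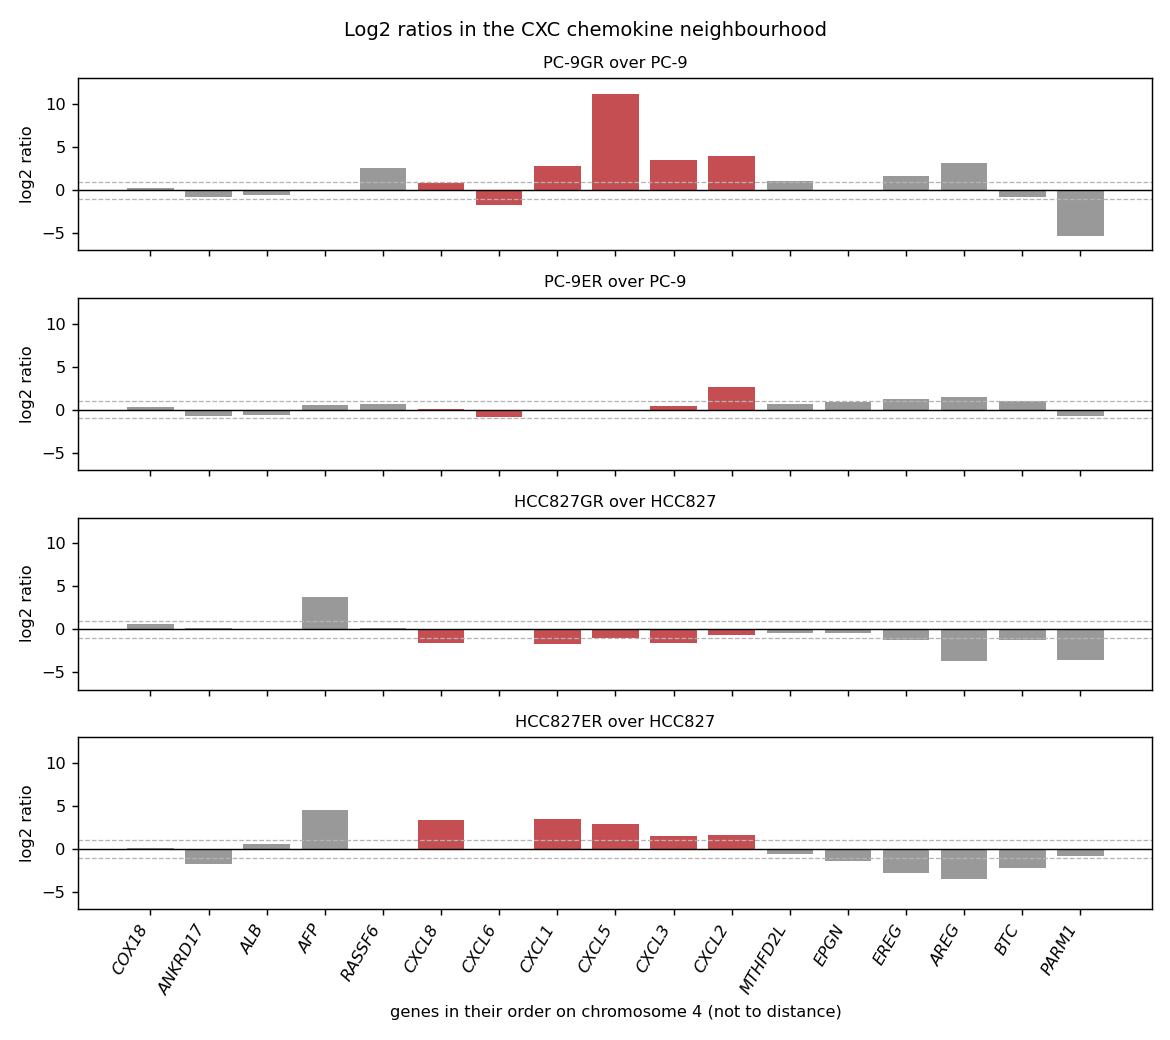
Log2 ratio of each derived line to its parent for genes of the chemokine cluster and its neighbours, in their order along chromosome 4 and without scale of distance, with the CXC genes in red and dashed lines at 2-fold. In HCC827ER the 5 CXC chemokines lie above 0 (CXCL5 at 2.97) and EREG, AREG and BTC below 0 (AREG at -3.47), whereas in PC-9GR both CXCL5 and AREG lie above 0.

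The wider pathway was described with lists of known genes, none of which had a gene called in any of the 4 edgeR fits (0 of the genes tested in each list). Some genes stand in more than 1 list. Without PC-9GR the fitted changes above 0 were 14 of 28 for subunits and kinases (median -0.0026), 12 of 19 for inputs (0.16), 11 of 15 for negative feedback (0.15), 24 of 35 for other targets (0.25), 2 of 12 for AU-rich decay (-0.20) and 8 of 13 for other regulators (0.31). Among 28 NF-kB subunits and kinases the fitted change was above 0 for 15 and below 0 for 13, with a median of 0.03. RELA had 92.0 CPM in PC-9GR and 182 CPM in PC-9ER, against 181 CPM in PC-9, and 178 CPM in HCC827GR and 165 CPM in HCC827ER, against 127 CPM in HCC827. REL had 51.5 CPM in PC-9GR and 42.0 CPM in PC-9ER, against 64.6 CPM in PC-9, and 173 CPM in HCC827GR and 27.9 CPM in HCC827ER, against 198 CPM in HCC827. RELB, NFKB1 and NFKB2 were between 18.7 and 128 CPM in every library, and their log2 ratios lay between -0.97 and 1.00. The lowest fitted genes were TAB3 (-1.18 ± 0.48), an adaptor of the kinase TAK1, and REL (-0.71 ± 0.61), and the highest were IKBKB (0.91 ± 0.55), the catalytic IkB kinase, and MAP3K8 (0.48 ± 1.03). In HCC827ER 10 of the 28 were at least 2-fold lower and 0 higher by total counts, beside 28.3% lower and 11.3% higher over all genes, and with TMM 5 were lower and 2 higher, beside 18.9% and 18%. In PC-9GR 6 of 28 were lower and 2 higher, beside 20.9% each way. The share of lower genes in PC-9GR is near its background.

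Receptors and ligands that switch NF-kB on were mixed, with 12 of 19 tested fitted above 0 and a median of 0.17. IL1B, a strong inducer of the 10 genes, had 0.336 CPM in PC-9GR and 45.6 CPM in PC-9ER, against 14.4 CPM in PC-9. It had 0.935 CPM in HCC827GR and 16.4 CPM in HCC827ER, against 0.895 CPM in HCC827. IL1A showed the same order within PC-9, with 0.336 CPM in PC-9GR and 30.6 CPM in PC-9ER, against 6.51 CPM in PC-9. PC-9GR, with its high CXC sum, thus had the lowest IL1A and IL1B levels of the 6 libraries. The receptor TLR4 was at 0 counts in PC-9GR and 8.41 CPM in PC-9ER, against 33.4 CPM in PC-9, and at 0 in the 3 HCC827 lines. TNFRSF1B, with TLR4 the lowest fitted of the list, was at or below 1.67 CPM in every library.

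Among 35 tested other NF-kB target genes, 20 were fitted above 0 and 15 below, with a median of 0.20. Of the 34 genes of the list that reached 1 CPM in the HCC827ER pair, 14 were at least 2-fold higher and 4 lower by total counts, beside 11.3% and 28.3% over all genes, and 18 and 4 with TMM, beside 18% and 18.9%. Of 32 in the PC-9GR pair, 5 were higher and 17 lower, beside 20.9% each way. The monocyte chemokine CCL2 had 20.02 CPM in PC-9GR and 0 counts in PC-9ER, against 0.059 CPM in PC-9, and 0.601 CPM in HCC827GR and 25.5 CPM in HCC827ER, against 0.069 CPM in HCC827. Its 2 highest libraries, HCC827ER and PC-9GR, were also those of CXCL5. VCAM1, an adhesion molecule like ICAM1, had 4.67 CPM in HCC827GR and 13.7 CPM in HCC827ER, against 0 counts in HCC827, and at most 0.059 CPM in the PC-9 lines. CX3CL1, another chemokine, had 48.1 CPM in HCC827GR and 142 CPM in HCC827ER, against 16.8 CPM in HCC827, and at most 0.224 CPM in the PC-9 lines. The lowest fitted were IL1RN (-3.18 ± 1.76), the interleukin-1 receptor antagonist, and LTB (-3.10 ± 1.15), lymphotoxin beta. LTB had 0.785 CPM in PC-9GR and 8.29 CPM in PC-9ER, against 50.1 CPM in PC-9.

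Of 15 tested genes of the list for negative feedback, NFKBIA and TNFAIP3 among them, 9 were fitted above 0 and 6 below, with a median of 0.04. Not every gene of this list, NFKBIZ included, acts only as an inhibitor of NF-kB. The highest were TNIP3 (2.98 ± 1.44), at 2.14 CPM or less in every library, and NFKBIZ (0.50 ± 0.38), and the lowest were SIGIRR (-0.94 ± 0.70) and N4BP1 (-0.44 ± 0.35). Several of the 10 mRNAs are known to be short-lived through AU-rich elements. Of 12 genes of the list for AU-rich mRNA decay, not all of which promote decay, 4 were fitted above 0 and 8 below, with a median of -0.21. In HCC827ER 6 of the 12 were at least 2-fold lower and 1 higher by total counts, beside 28.3% and 11.3% over all genes, and 2 were lower and 2 higher with TMM, beside 18.9% and 18%. ZFP36L2, a decay factor, had 47.3 CPM in PC-9GR and 65.9 CPM in PC-9ER, against 146 CPM in PC-9, and 38.9 CPM in HCC827GR and 14.4 CPM in HCC827ER, against 81.1 CPM in HCC827. It was thus lower in every derived line (-1.44 ± 0.39, edgeR adjusted p = 0.999). RC3H1 was the next lowest (-0.54 ± 0.51), and the highest were ZC3H12A (0.45 ± 0.72), which encodes an RNase that degrades IL6 mRNA, and ARID5A (0.28 ± 0.79).

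Of 13 other regulators of these promoters, 8 were fitted above 0 and 5 below, with a median of 0.24. CEBPD, a C/EBP factor, had 87.5 CPM in PC-9GR and 12.8 CPM in PC-9ER, against 4.08 CPM in PC-9, and 41.2 CPM in HCC827GR and 197 CPM in HCC827ER, against 49.6 CPM in HCC827. The AP-1 gene FOSL1 was lower in every derived line. It had 19.0 CPM in PC-9GR and 41.1 CPM in PC-9ER, against 95.2 CPM in PC-9, and 336 CPM in HCC827GR and 86.1 CPM in HCC827ER, against 756 CPM in HCC827 (-1.73 ± 0.53, edgeR adjusted p = 0.999). FOS was fitted at -1.92 ± 1.21 and CEBPA at 1.71 ± 0.91. Of 11 listed receptor genes for chemokines, IL6 and ICAM1, not all of which bind products of the 10 genes, 5 were tested. The fitted change was above 0 for 4 of them. ITGB2, the beta-2 integrin chain that binds ICAM1, was the lowest (-2.35 ± 0.92), followed by IL6ST (0.028 ± 0.44). The atypical receptor ACKR3 (3.60 ± 1.51) and ITGAM (1.91 ± 1.21) were the highest. ACKR3 had 7.12 CPM in PC-9GR and 32.9 CPM in PC-9ER, against 1.48 CPM in PC-9. It had 0 counts in HCC827GR, HCC827ER and HCC827, so its fitted change rests on the PC-9 family. Of 6 tested other chemokines 4 were fitted above 0, led by CCL2 and CX3CL1, and CCL26 and CXCL16 were the lowest.

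**Figure D5:**
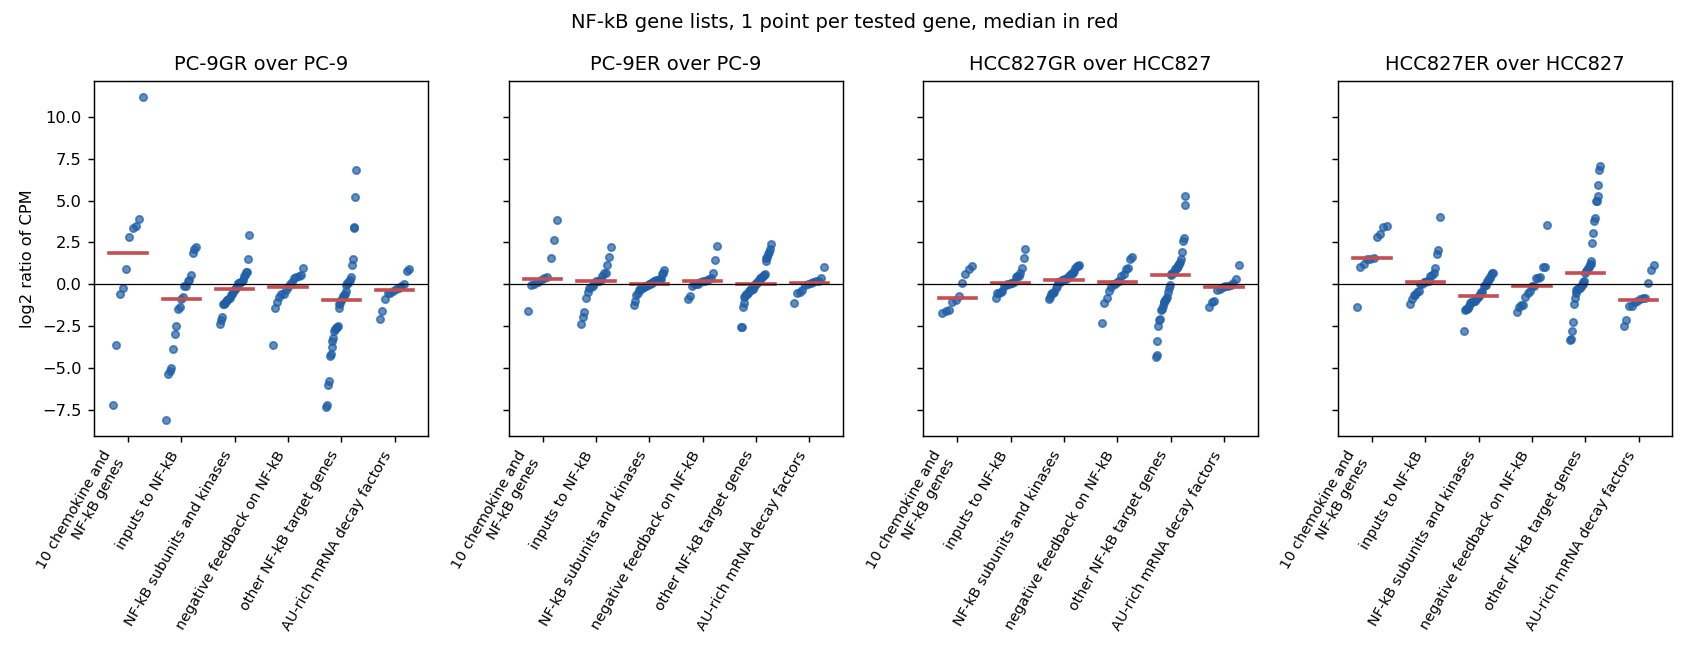
Log2 ratios of the tested genes of 6 lists in the 4 pairs, by total counts with a prior count of 2, with a point per gene and the median as a red line. The 10 genes have medians of 1.87 (PC-9GR), 0.32 (PC-9ER), -0.82 (HCC827GR) and 1.56 (HCC827ER), while the subunits and kinases have -0.29, 0.01, 0.27 and -0.73.

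Leukocytes and fibroblasts can also make these chemokines. Leukocyte markers, 9 of 12 listed, summed to 31.2 to 148 CPM in derived lines and 56.4 to 92.8 CPM in parental lines, of which the lysosomal gene CD68 made up 21.7 to 127 CPM, and the T-cell genes CD3D and CD3E had at most 1 count in any library. The monocyte gene CD14, not among the 3 of these markers that were tested, was higher in both libraries with high chemokine sums. It had 90 counts (5.05 CPM) in PC-9GR and 3 counts in PC-9ER, against 1 count in PC-9, and 0 counts in HCC827GR and 9 counts (0.520 CPM) in HCC827ER, against 1 count in HCC827. CSF1R had 0.168 CPM in PC-9GR and 5.28 CPM in PC-9ER, against 3.49 CPM in PC-9, and 2.14 CPM in HCC827GR and 0.347 CPM in HCC827ER, against 6.33 CPM in HCC827. ITGB2 was lower in every derived line, not only in those with high chemokine sums. It had 0.953 CPM in PC-9GR and 3.54 CPM in PC-9ER, against 26.4 CPM in PC-9. In the HCC827 family it had 11.1 CPM in HCC827GR and 20.01 CPM in HCC827ER, against 29.3 CPM in HCC827. Fibroblast markers, 6 of 8 listed, summed to 2.66 to 41.2 CPM in derived lines and 7.502 to 23.0 CPM in parental lines, most of it COL1A1, with at most 4 counts of COL1A2. Their part in the chemokine values was not tested. Among tested genes outside all the lists, those with a profile over the 6 libraries most like the mean of the 5 CXC genes were sought. They were SMIM26, IFT22, TTC25, ISG20 and SEC61B, with Pearson's r between 0.985 and 0.997. These were picked as the highest of the 13492 tested genes after those of the lists were left out. In the 6 libraries compared 2 were high, so r is a description only.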

How the data were processed

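Total RNA of 6 cell lines was sequenced with a stranded, ribosome-depleting TruSeq kit, per the labels' protocols. The authors deposited expected counts per gene in 2 tables of 16854 and 16306 genes, of which the 16000 shared genes were used. The submitters' processing notes list HISAT2 2.0.4, Cuffdiff and GRCh38.p13. The counting program was not given in the sources used here. Between 13.2% and 14.3% of values per library were not whole and were rounded, while all 60 values of the 10 genes were whole.

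CPM were computed over the shared genes, with log2 ratios at a prior count of 2 and exact 95% conditional binomial intervals. Intervals and the limit of 3 counts behind a 0 (0.168 to 0.206 CPM) cover counting error only. The edgeR 4.0.16 test in R 4.3.3 used TMM, the default filter (13492 genes) and robust quasi-likelihood fits. Line of origin was a block, with Benjamini-Hochberg adjustment at 0.05. The SE beside a fitted change is the size of that change divided by the square root of the test's F statistic. It is approximate, and unreliable where counts of 0 fill a group. The code was also run on simulated data with a smaller dispersion than these data and no difference between parents. That run does not show how well the test finds changes here. On these data the test had 3 residual degrees of freedom, or 2 within families, and the common dispersion was 0.416. No line has a repeat culture, so p-values measure the spread between derived lines. DESeq2 1.42.0, RLE scaling, no filter, a prior count of 0.5, no block and leaving out each derived line were alternatives. The named genes are the 10 in every comparison, the 2 highest and 2 lowest fitted genes of each list, the NF-kB subunits and the 5 genes of most similar profile; of the marker lists not all of these are shown, and other genes were named after their values were seen. The 10 genes and the 14 lists were chosen with earlier results of these data known.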

Additional observations from a re-analysis of the deposited data

Results flagged for a closer look

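ICAM1 lay on opposite sides of its parent in the families: its log2 ratio to the parent was -7.24 in PC-9GR and -1.61 in PC-9ER, but 1.07 in HCC827GR and 1.52 in HCC827ER. It is listed because both derived lines of one parent lay below it and both of the other above it. The difference itself (HCC827 minus PC-9), tested with edgeR, was 4.10 ± 2.94 on the log2 scale with an adjusted p of 1.00, so it did not pass.

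Among listed pathway and marker genes that only the first table holds, and for which the ER libraries were therefore not analysed here, the NF-kB activating receptor CD40 had 54 counts in PC-9GR and 0 in PC-9. The fibroblast marker PDGFRA had 19 counts in PC-9GR and 0 in PC-9. Both are listed because a signal appeared where the parent had none.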

How the results depend on the processing

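Of 282 fitted values of the 10 genes under alternatives, 21 changed sign and 7 became called, and of 80 pair values 0 changed sign. DESeq2 called 21 genes higher and 13 lower across families, 86 and 6 within PC-9, 28 and 14 within HCC827, and 7 and 18 for the difference, against 0 with edgeR. Leaving out each derived line gave 0 across families, 0 to 508 higher and 0 to 491 lower within PC-9, 0 to 67 and 0 to 100 within HCC827, and 0 to 258 and 0 to 248 for the difference. TMM moved the genes at least 2-fold higher in HCC827ER to 2278 from 1421. Without PC-9GR, 2 of the 10 genes were higher in every pair, against 0 with it. Log2 ranges on leaving out a line, where the sign changed, were as follows. Across families CXCL8 ranged from -0.39 to 1.97, TNFAIP3 from -1.66 to 0.15 and ICAM1 from -2.62 to 0.082. Within PC-9 CXCL1 ranged from -0.031 to 2.92, IL6 from -0.23 to 3.92, NFKBIA from -0.57 to 0.24 and TNFAIP3 from -3.59 to 0.39. Within HCC827 CXCL1 ranged from -1.84 to 3.86, CXCL2 from -0.73 to 1.96, CXCL3 from -1.91 to 1.97, CXCL5 from -0.99 to 3.33, CXCL8 from -1.61 to 3.77 and TNFAIP3 from -0.99 to 0.58. For the difference CXCL1 ranged from -3.93 to 2.91, CXCL3 from -4.83 to 0.50, CXCL5 from -15.22 to 2.39, CXCL8 from -2.19 to 3.17, IL6 from -2.96 to 1.20 and TNFAIP3 from -0.47 to 3.58. The cause was not tested. Without PC-9ER, PC-9GR stands alone and is assumed to vary like the HCC827 lines; CXCL2, CXCL5, TNFAIP3 and ICAM1 then passed edgeR within PC-9, among 7.58% of genes (508 higher, 491 lower), and CXCL5 and ICAM1 for the difference, among 3.84% (258 and 248). Within PC-9 the CXCL5 fit was 0 without PC-9GR. The fit without the block of line of origin also called 0 genes.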
